A study of Mus musculus with 6 samples.

Results

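The genes described here are 10 lymphocyte and pan-leukocyte genes, namely Cd3d, Cd3e, Cd3g, Cd8a, Cd4, Nkg7, Ptprc, Cd52, Coro1a and Rac2. They are a fixed set of symbols, each matched to its Ensembl identifier. Of the 10 genes, 7 had an expression value in 1 library or more, given as FPKM, a count of sequenced fragments scaled to transcript length and to the size of the library, among 15441 genes with a value in all, and Cd3g, Cd8a and Cd52 had none. The study followed the ipsilateral cerebral cortex of male C57/BL6J mice, 6 to 8 weeks old, after photothrombosis, in which the dye Rose Bengal was injected and a cold light shone through the intact skull onto the sensorimotor cortex. RNA came from 5 times after stroke (days 1, 3, 7, 14 and 28), and values given for the 5 days stand in that order. Control mice were sham-operated, without illumination, and were sampled at day 7 after the operation, so that no other day had a sham group of its own. The RNA of 3 mice was pooled for each of the 6 libraries. With 1 library per group, no value here has a replicate error, no test was possible, and the order of libraries close in value is not established.

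T cells recognise antigen through a receptor whose signals pass through the CD3 chains encoded by Cd3d, Cd3e and Cd3g. CD4 and CD8 are coreceptors that mark helper and cytotoxic T cells, and Nkg7 encodes a membrane protein of the granules of cytotoxic T cells and natural killer cells. Ptprc, which encodes the phosphatase CD45, Cd52, Coro1a and Rac2 are used across leukocytes, and the cortex holds its own resident leukocytes, the microglia, besides those that enter from blood after an injury. In bulk RNA, a change in the number of such cells and a change in RNA per cell cannot be told apart.

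The deposited values belong to transcript starts, transcript ends and splicing events. The value of a gene was the largest of its summed starts, its summed ends and any single event. A gene without any event in a library is called not listed, which is not a measured 0. The libraries listed between 13263 (day 14) and 13987 (day 7) genes, and 62.4% of the protein-coding genes of the annotation had a value in any library. The depth of each library is unknown, and only an average over the samples is stated. The defining genes of cortex were listed in every library, with Snap25, a synaptic protein of neurons, between 486 and 706 FPKM. The day 14 library stands apart from the rest. Its log2 ratios to control declined with transcript length (Spearman correlation -0.413 across 12025 genes, which are not independent), against correlations between -0.254 and 0.00325 on the other days. It lacked 38 genes that had a median of 5 FPKM or more in the remaining libraries, and each of those libraries lacked only 2 to 7. Values corrected for length are given for the members at day 14, and values of other genes at day 14 are as deposited.

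Sequences are shown for Ptprc and Coro1a, whose events carry isoform information. Events of Cd3d, Cd4 and Rac2 that bear on isoforms are described further below without sequences. Ptprc (ENSMUSG00000026395) lies on the minus strand of chromosome 1, 138062861 to 138175708 of GRCm38. Its exons 4, 5 and 6 of 129, 147 and 141 bases are the variable exons A, B and C of CD45, and they encode part of the extracellular domain. Exon 7 has 72 bases. B cells and many T cells are known to keep some of these exons, and the short form without any of them is called CD45RO. The lines show what the splicing results turn on, the joined exons of the annotated full-length transcript and of a short transcript that leaves out exons 4 to 6 (GENCODE M21, GRCm38, 5′ to 3′ on the minus strand). The variable exons are in capitals.
Full-length Ptprc exon 3 and exon 4, the ends of chr1:138122456-138126326: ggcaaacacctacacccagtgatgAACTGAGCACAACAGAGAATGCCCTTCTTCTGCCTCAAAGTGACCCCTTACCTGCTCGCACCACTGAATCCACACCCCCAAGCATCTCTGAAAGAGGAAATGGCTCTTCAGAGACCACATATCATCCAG
Full-length Ptprc exon 5, chr1:138120020-138120166: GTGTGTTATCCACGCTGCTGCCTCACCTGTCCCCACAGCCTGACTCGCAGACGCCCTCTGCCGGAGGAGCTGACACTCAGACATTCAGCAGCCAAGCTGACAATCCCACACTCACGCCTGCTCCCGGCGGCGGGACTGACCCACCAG
Full-length Ptprc exon 6 and exon 7, the ends of chr1:138116954-138117894: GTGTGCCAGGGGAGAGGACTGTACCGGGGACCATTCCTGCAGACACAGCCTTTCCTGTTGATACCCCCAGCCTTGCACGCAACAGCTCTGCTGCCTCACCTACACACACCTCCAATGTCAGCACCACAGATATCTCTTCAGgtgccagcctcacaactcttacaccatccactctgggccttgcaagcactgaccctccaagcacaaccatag
Short Ptprc exon 3 and its next exon, the ends of chr1:138116954-138126326: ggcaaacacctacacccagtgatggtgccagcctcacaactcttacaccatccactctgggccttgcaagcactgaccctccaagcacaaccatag
The last line holds no capitals, because exon 3 is followed directly by what is exon 7 of the full-length transcript.

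Coro1a (ENSMUSG00000030707) lies on the minus strand of chromosome 7, 126699773 to 126707787 of GRCm38. Its listed starts include both starts for which RefSeq (GRCm38.p6) gives a promoter window. The windows are printed 5′ to 3′ on the minus strand, since the libraries differ in which start they list, and the capitals mark the 50 bases from the transcript start onward.
Coro1a-201 start, chr7:126704767-126705066: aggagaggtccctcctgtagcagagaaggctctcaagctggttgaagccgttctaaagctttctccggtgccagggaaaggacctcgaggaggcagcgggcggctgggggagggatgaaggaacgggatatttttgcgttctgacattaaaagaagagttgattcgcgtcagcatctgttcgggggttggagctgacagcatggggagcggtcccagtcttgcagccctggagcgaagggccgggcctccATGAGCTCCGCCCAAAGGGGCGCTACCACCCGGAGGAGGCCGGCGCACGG
Coro1a-202 start, chr7:126704171-126704470: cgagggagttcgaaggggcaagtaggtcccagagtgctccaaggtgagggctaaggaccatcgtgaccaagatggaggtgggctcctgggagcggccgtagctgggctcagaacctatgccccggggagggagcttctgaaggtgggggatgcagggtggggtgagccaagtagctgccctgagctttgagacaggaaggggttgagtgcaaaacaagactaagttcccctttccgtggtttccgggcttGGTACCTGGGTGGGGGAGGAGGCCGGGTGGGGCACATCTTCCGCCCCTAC
RefSeq windows of 250 bases before to 50 bases after the start were at hand for 7 of the 10 genes (Cd3d, Cd3e, Cd3g, Cd8a, Coro1a, Nkg7 and Ptprc), with 9 windows in all. The letters GAGGAA, a core of ETS family sites, occurred on either strand in 4 of the 9 windows (Cd3d, Cd3e, Cd8a and 1 of those of Ptprc) and in 28.3% of all 32851 windows. The letters TGTGGT, a core of RUNX sites, occurred in 1 of the 9 (Nkg7) and in 16.8% of all windows. The letters TATAAA occurred in 1 of the 9 (Ptprc) and in 13.6% of all. Neither Coro1a window held any of these letters.

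Apart from Cd4, the T cell and cytotoxic members were under 1 FPKM wherever they were listed, and day 14 was the library in which most of them appeared. In control 4 of the 10 members were listed, and on the 5 days 4, 4, 5, 7 and 5. Over all genes, the share listed was lowest in control and at day 14 (85.9% of 15441 genes in each) and highest at day 7 (90.6%). The day 14 library thus listed the most members and, with 13263 against 13267 in control, the fewest genes.

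Cd3d (ENSMUSG00000032094, chromosome 9, 44981786 to 44987339, plus strand), which encodes the delta chain of CD3, had 0.0149 FPKM at day 7, 0.479 at day 14 and 0.268 at day 28. It was not listed in the 3 earlier libraries, so that no ratio to control can be given. At day 14 its value rested on the last exon of the gene (chromosome 9, 44986273 to 44987339), while the only start listed, the inner start of an annotated transcript with a retained intron, held 0.0283 FPKM. At day 28 start and end held the same 0.268 FPKM. Counted by starts alone, day 28 was therefore the highest library for Cd3d. Length correction lowered the day 14 value to 0.362 FPKM and left it above day 28 (0.261).

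Cd3e (ENSMUSG00000032093), the epsilon chain, was listed at day 14 and in no other library, with 0.131 FPKM in the last exon of Cd3e-201 (chromosome 9, 44998740 to 44999587, minus strand). Nkg7 (ENSMUSG00000004612) was likewise listed at day 14 and nowhere else, with 0.994 FPKM at the first exon of the gene (chromosome 7, 43437073 to 43437460). Both were thus among the 204 genes listed at day 14 alone, where the other libraries had between 112 and 277 genes listed alone. After length correction the day 14 values were 0.113 FPKM for Cd3e and 0.739 for Nkg7.

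Cd3g (ENSMUSG00000002033, chromosome 9, 44969572 to 44980431, minus strand), the gamma chain, and Cd8a (ENSMUSG00000053977, chromosome 6, 71373427 to 71379173, plus strand) were in none of the 6 tables, under their own identifier or under any locus that overlaps their span. Cd52 (ENSMUSG00000000682, chromosome 4, 134082448 to 134095082, minus strand), a small surface glycoprotein of lymphocytes and myeloid cells, was in none either. The 22 events that fall inside the span of Cd52 lie on the opposite strand and belong to Crybg2. Since widely expressed genes were also missing from single libraries, these gaps do not show that the transcripts were absent.

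Cd4 (ENSMUSG00000023274, chromosome 6, 124864692 to 124888221, minus strand) was the exception among the T cell members, because it was listed in all 6 libraries, control included. The FPKM of Cd4 was 2.56 in control and then 1.83, 1.49, 2.78, 4.43 and 3.95 on the 5 days. The lowest value was therefore at day 3 and the highest at day 14, and both late libraries were above control by 1.73-fold and 1.54-fold. The log2 ratios of -0.46, -0.74, 0.12, 0.77 and 0.61 in order of day were all under 1 in size. After length correction the day 14 value was 4.04 FPKM, against 3.79 at day 28.

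The events of Cd4 came from different parts of the gene. The end of the full transcript Cd4-201 (chromosome 6, 124864667 to 124866275, minus strand) was listed in every library, between 1.15 FPKM at day 3 and 4.43 at day 14. The start of the gene, the exon at 124888080 to 124888200, was listed at day 3 alone, with 1.49 FPKM. At day 3 that start held the whole Cd4 value, with 1.15 FPKM reaching the last exon of Cd4-201 and 0.341 ending in an annotated transcript with a retained intron. In the other libraries the listed splicing events were confined to the exons near the 3′ end of the gene, and where these transcripts began is not given. A shortened Cd4 transcript is known from mouse brain. Whether it is what the other libraries hold was not tested. Counted by starts alone, Cd4 had a value at day 3 and in no other library.

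**Figure D1:**
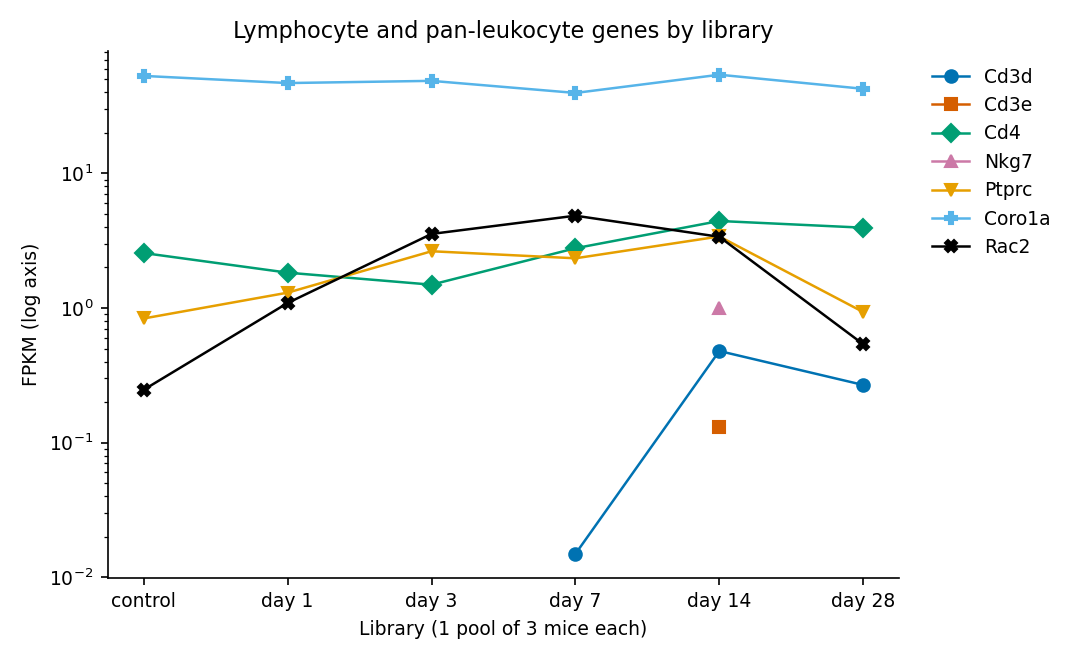
FPKM of the 7 listed members (log axis) in the 6 libraries, each 1 pool of 3 mice, with no point where a gene was not listed and no error bars since there are no replicates; the libraries are evenly spaced, not to time scale. Coro1a lies between 39.6 and 54.1 FPKM throughout, Rac2 and Ptprc are highest at day 7 and day 14, and Cd3d, Cd3e and Nkg7 have points at day 14 below 1 FPKM.

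Of the pan-leukocyte members, Ptprc and Rac2 were higher than control on days 3, 7 and 14 and nearer to it at day 28, while Coro1a differed little. A gene was compared with control where either library had at least 1 FPKM, by log2((FPKM + 0.1)/(control FPKM + 0.1)), which understates the change of low genes, and it was called where this ratio was at least 1 in size. In the gene lists further below, a gene not listed in control or on the day was taken there as 0. Such a gene was bound to be called wherever it was compared, so its call is no evidence of change. Cd4, Ptprc, Coro1a and Rac2 could be compared on days 1 to 14, and Cd4 and Coro1a at day 28. At day 1, 1 of the 4 was called higher (Rac2), against 5.11% of 11790 genes. On the next 3 days Ptprc and Rac2 were both called, 2 of 4 members each time, where 8.54%, 8.53% and 8.97% of all genes compared were. At day 28, 0 of 2 were called, against 3.68% of genes called higher and 2.79% lower. No member was called lower on any day, while 4.48%, 2.53%, 2.12% and 6.92% of genes were on the first 4 days in turn. The median log2 ratio of the members compared was 0.20, 0.72, 0.75, 1.34 and 0.15 in order of day, and that of all genes compared lay between 0.01 and 0.10. With 4 or fewer members compared, these shares describe single genes rather than a group. A pseudocount of 1 in place of 0.1 left Rac2 uncalled at day 1 and Ptprc uncalled at days 3 and 7.

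Rac2 (ENSMUSG00000033220) encodes a small GTPase of haematopoietic cells that takes part in actin remodelling and in activating the NADPH oxidase. It lies on the minus strand of chromosome 15, 78559167 to 78572783. The FPKM of Rac2 was 0.247 in control and then 1.09, 3.55, 4.85, 3.38 and 0.538 on the 5 days. Day 7 was the highest library and control the lowest, with days 3 and 14 close to each other. The FPKM was 4.42-fold, 14.4-fold, 19.6-fold and 13.7-fold that of control at days 1 to 14 in turn, with log2 ratios of 1.78, 3.39, 3.83 and 3.32. At day 28 it was 2.18-fold control (log2 ratio 0.88), with both values under 1 FPKM. After length correction day 14 was 3.09 FPKM and day 7, at 4.69, was still the highest. Rac2 had the largest ratio of any member compared or listed in both libraries on each of the 5 days.

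The start of Rac2 was a single exon (78572611 to 78572783) in all libraries and carried the whole value. Its end was a single exon in control and at days 1, 3 and 28. At day 7, 1.28 of 4.85 FPKM, and at day 14, 0.819 of 3.38 FPKM, ended instead in an exon from 78559169 to 78562038, in which the intron before the last exon was kept. This longer end was not listed in the other libraries.

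The FPKM of Ptprc was 0.836 in control and then 1.30, 2.64, 2.34, 3.40 and 0.933 on the 5 days. It was highest at day 14, and days 3 and 7 lay below that and near each other. Control and day 28 were the lowest and 1.12-fold apart. From day 1 to day 14 it was 1.55-fold, 3.16-fold, 2.80-fold and 4.07-fold that of control, with log2 ratios of 0.58, 1.55, 1.38 and 1.90. Correction for transcript length (Ptprc is the longest member, at 5740 nt) moved day 14 to 3.89 FPKM and left the order of days 3, 7 and 14 as it was.

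**Figure D2:**
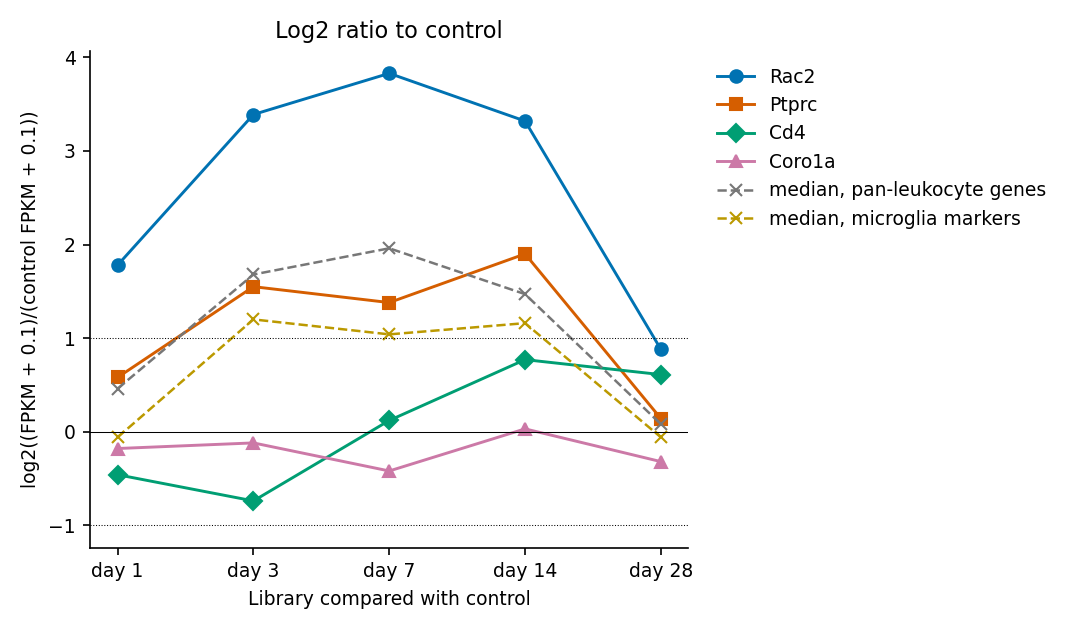
Log2 ratio to control (pseudocount 0.1 FPKM) of the 4 members listed in all 6 libraries, with the median ratio of the pan-leukocyte list and of the microglia marker list (dashed) and dotted lines at the threshold of 1 in size. Rac2 is above 1 on days 1 to 14, Ptprc on days 3 to 14, and Cd4 and Coro1a stay within 1 of control on every day.

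Where splicing of Ptprc could be read, the variable exons were left out. Splicing events of Ptprc were listed at day 3 and day 7 only. At day 3, 2.44 FPKM belonged to transcripts that join exon 3 to exon 7, as in the last sequence line for Ptprc, and 0.192 FPKM to transcripts that leave out exon 7 as well, as in another annotated short transcript. Together they made up 99.8% of the 2.64 FPKM at the start of the gene. At day 7 the values were 1.92 and 0.400 FPKM, or 99.2% of 2.34 FPKM. The share without exon 7 was 7.27% of both forms at day 3 and 17.2% at day 7. No event in either library contained exon 4, 5 or 6, and what was left over came to 0.00624 FPKM at day 3 and 0.0179 at day 7. These are estimates for assembled transcripts, with no replicate to show how far the shares would vary.

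The last exon of Ptprc (138062861 to 138064778) was its only event in 3 libraries, those of control, day 1 and day 14, and at day 28 the start held 0.0110 FPKM of 0.933. The form of CD45 in those libraries, day 14 included, is therefore not given. Counted by starts alone, Ptprc had no value in control and was highest at day 3.

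**Figure D3:**
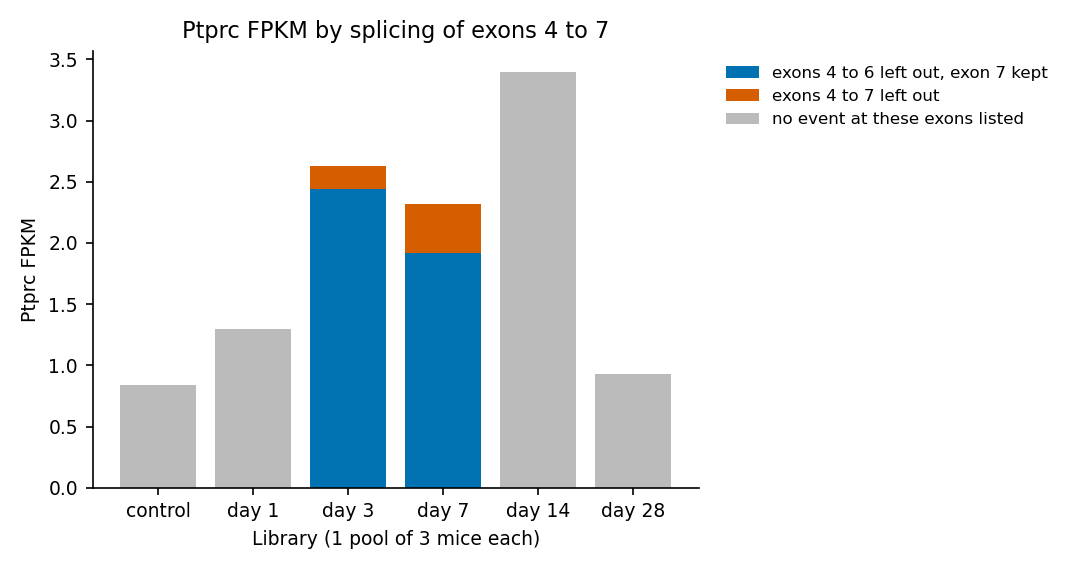
Ptprc FPKM per library (bars, 1 pool of 3 mice each), divided at days 3 and 7 into transcripts without exons 4 to 6 and transcripts without exons 4 to 7, and in grey where no event at these exons was listed. At day 3 the forms hold 2.44 and 0.192 FPKM and at day 7 they hold 1.92 and 0.400 FPKM, and the small remainder of 0.00624 and 0.0179 FPKM is not drawn.

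Coro1a encodes an actin-binding protein that T cells need for survival and signalling, and that neurons also express. The FPKM of Coro1a was 53.0 in control and then 46.9, 48.7, 39.6, 54.1 and 42.5 on the 5 days. It was the most abundant member in every library, and in control its FPKM, a value per transcript length, stood beside 0.836 for Ptprc. The 6 values spanned less than 1.5-fold, and the log2 ratios to control lay between -0.42 at day 7 and 0.03 at day 14. By summed ends, with the median scaling of the libraries or after length correction (43.2 FPKM at day 14), control and not day 14 was the highest library.

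The starts of Coro1a differed more than its total. The start of Coro1a-201 (first exon 126704652 to 126704816) held 32.8 FPKM in control and then 23.9, 23.8, 25.7, 49.8 and 35.9. That was 61.9% of the summed starts in control, 48.8% at day 3 and 92.2% at day 14. An inner start that belongs to annotated transcripts with a retained intron (126702006 to 126702472) held 17.3 FPKM in control, 18.8 at day 1 and 10.4 at day 7, but between 0.540 and 0.716 in the other 3 libraries. The start of Coro1a-202 (126703969 to 126704220), whose window is the other one printed, was listed at day 3 and not elsewhere, at 21.5 FPKM or 44.0% of the starts. A further start (126702976 to 126703174) was listed at day 28 alone, at 4.24 FPKM. The start of Coro1a-207 lay between 1.81 and 4.19 FPKM in all libraries. The starts come from an assembly made of short reads, and there is no replicate against which to set these differences.

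**Figure D4:**
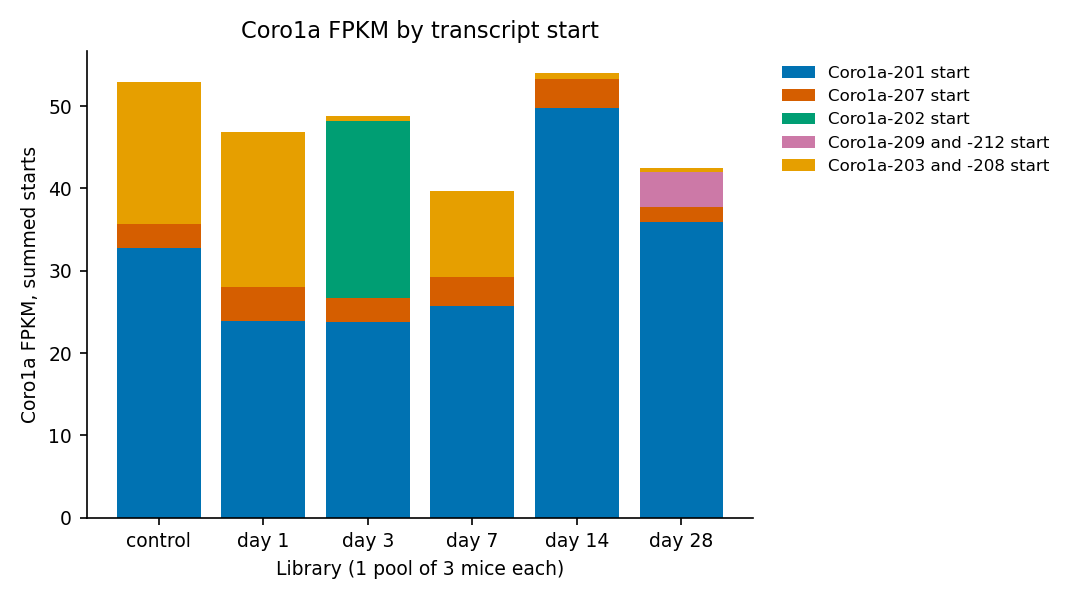
Coro1a FPKM per library (stacked bars, 1 pool of 3 mice each) divided by the transcript start that carries it. The total stays between 39.6 and 54.1 FPKM, while the Coro1a-201 start runs from 23.8 FPKM at day 3 to 49.8 at day 14 and the Coro1a-202 start, at 21.5 FPKM, is seen at day 3 alone.

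Among the 4 members listed in all libraries, Pearson's r of log2(FPKM + 0.1) over the 6 libraries was 0.941 for Ptprc with Rac2, and between -0.220 and 0.102 for every other pair. The non-member genes with the profile most like that of Ptprc, of 11561 searched, were Mns1, Lmf2, Rcn3, Rnaset2a and Fabp5, with r between 0.9876 and 0.9929. Those most like the mean profile of the 4 members were Cct4, Maml2, Svbp, H2-D1 and Rgs19, with r between 0.9899 and 0.9952. These are descriptions over 6 points from libraries that differ in length bias, with no test.

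Other genes of T cells gave little around the CD3 genes. Of 26 T cell receptor and T cell genes, 14 had a value in any library, and between 7 (control) and 10 (days 7 and 28) were listed at a time. The most abundant were Trbc2, a constant region of the T cell receptor beta chain, at 11.4 FPKM in control, 2.86 at day 3 and 8.73 at day 14, and Bcl11b, a transcription factor of T cells that cortical neurons also express, between 6.37 and 9.50 FPKM. Trbc2 had its highest value in control, where no CD3 gene was listed, and its listed starts lie outside its annotated span, while events inside the span give the same values in all 6 libraries. Zap70, the kinase that docks on the CD3 chains, had 0.499, 0.631, 0.446 and 1.27 FPKM from day 1 to day 14 and was not listed otherwise. Lck, the kinase of the coreceptors, and Cd2, Cd5 and Icos were in no table. At day 14, 2 of 6 genes compared were called higher (Zap70 and Lef1) and 1 lower (Cd6), against 8.97% and 6.92% of all genes compared. Zap70 was bound to be called, since it was not listed in control and was taken there as 0. At day 7, 0 of 3 were higher and 2 lower (Trbc2 and Cd6), with Cd6 not listed at that day. On the other 3 days 0 were higher, and 1, 1 and 0 lower.

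Of 18 cytotoxic and natural killer genes, 7 had a value, with 0 listed in control and 5 at day 14, the most of any library. Ccl5, a chemokine released by T cells and other cells, had 0.528, 0.620, 1.38, 9.12 and 0.545 FPKM on the 5 days. It was the only gene of the list that could be compared, at days 7 and 14. Since Ccl5 was not listed in control and was taken there as 0, it was bound to be called higher on both days. The other genes stayed under 1 FPKM. Eomes, a transcription factor of cytotoxic cells, was listed at day 14 (0.725 FPKM) and day 28 (0.532). Gzma (0.353) and Ctsw (0.455), both proteases of cytotoxic granules, were listed at day 14 alone, as Nkg7 was. Gzmk was listed at days 1, 3 and 28 but not at day 14, and Ncr1, a natural killer cell receptor, at day 7 alone (0.329). Cd8b1, Gzmb, Prf1 and Ifng were in no table.

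Of 17 genes of T cell activation, regulation and checkpoints, 9 had a value, with 4 listed in control and 8 at day 14. Called higher were 0 of 2, 3 of 4, 2 of 3, 3 of 4 and 0 of 2 on the 5 days. Of all genes compared, 5.11%, 8.54%, 8.53%, 8.97% and 3.68% were called higher on those days. Lag3, a checkpoint receptor that binds MHC class II and that microglia also express, lies near Cd4 on chromosome 6. It had 2.72 FPKM in control and then 2.76, 5.53, 12.9, 16.9 and 3.72 (log2 ratio 2.59 at day 14). Havcr2, a further checkpoint receptor shared with myeloid cells, was highest at day 7 at 4.87 FPKM against 1.21 in control. Il2rg, the shared chain of several interleukin receptors, was highest at day 14 at 1.36 FPKM and was missing from control. Taken there as 0, Il2rg was bound to be called at days 3 and 14, where it was compared. Pdcd1 was listed at day 7 alone (0.629 FPKM), and Ctla4, Il2ra and Cxcr3 were in no table.

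Of 14 B cell and plasma cell genes, 5 had a value, with 1 listed in control, all 5 at day 3 and 2 at day 14. Called higher were 1 of 1 compared at day 7 (Cd22) and 2 of 2 at day 14 (Cd22 and Cd79a). Neither gene was listed in control, and both were taken there as 0, so each was bound to be called once it reached 1 FPKM. These calls can therefore not be set against the 8.53% and 8.97% of all genes called higher on those days. No gene of the list could be compared on the other days. Cd79a, a signalling chain of the B cell receptor, was listed from day 3 on, at 0.681, 0.611, 1.03 and 0.605 FPKM. Cd22, an inhibitory receptor of B cells, had between 0.914 and 1.18 FPKM at days 3, 7 and 14 and was not listed otherwise. Bank1, the 1 gene listed in control (0.628 FPKM), had 0.398, 0.0317 and 0.797 FPKM at days 1, 3 and 7. It was not listed at day 14 and had 0.526 FPKM at day 28. Cd79b was listed at days 3 and 7 only (0.378 and 0.587 FPKM). Ms4a1 and Ighm were in no table.

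**Figure D5:**
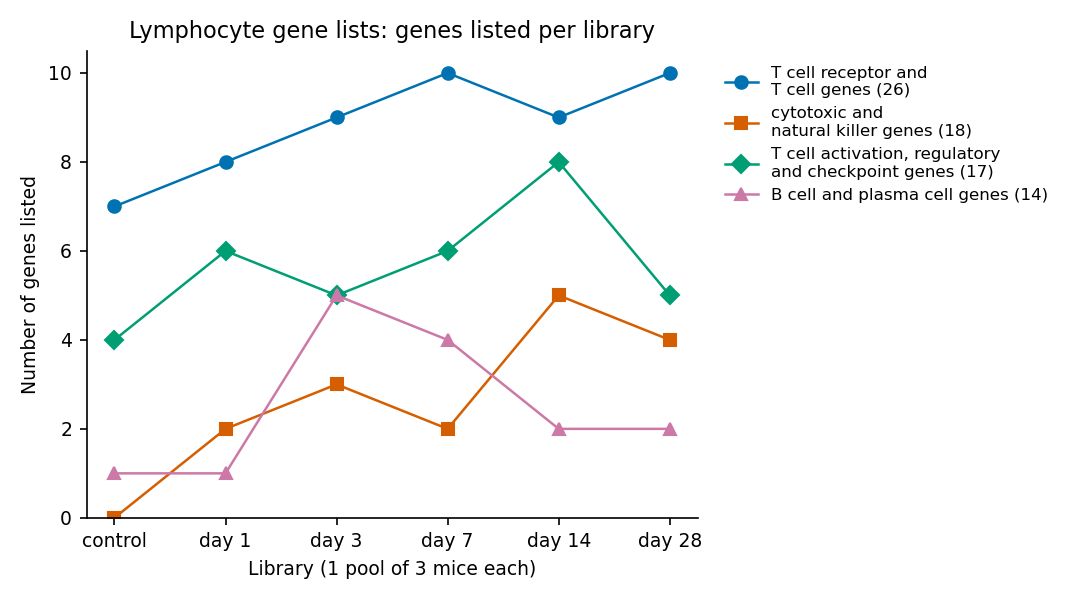
Number of genes with any event, so listed, in each library (1 pool of 3 mice each) for 4 lists, whose sizes stand in brackets. Cytotoxic genes go from 0 in control to 5 at day 14 and checkpoint genes from 4 to 8, while the T cell list stays between 7 and 10 and the B cell list is highest at day 3 with 5.

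Most other pan-leukocyte genes were higher than control on days 3, 7 and 14, the days on which both Ptprc and Rac2 were. Of 26 such genes, 24 had a value. Called higher were 1 of 19, 17 of 21, 20 of 22, 14 of 21 and 2 of 19 genes compared on the 5 days, and lower 2, 0, 0, 2 and 2, with median log2 ratios of 0.46, 1.68, 1.96, 1.47 and 0.08. Of all genes compared, 5.11%, 8.54%, 8.53%, 8.97% and 3.68% were called higher. The highest library was day 7 for 18 of the 24 and day 14 for 2, whereas Ptprc was highest at day 14. Laptm5, a lysosomal membrane protein of leukocytes, went from 11.8 FPKM in control to 44.1 at day 7, Cd53, a tetraspanin, from 4.55 to 20.6, and Itgb2, the beta 2 integrin, from 1.47 to 12.8. The 2 genes called lower at day 14 were both higher at day 7. Lcp1, an actin bundling protein, had 2.99 FPKM in control and then 0.426, 2.23, 18.8, 0.302 and 0.424 on the 5 days. It was thus also low at days 1 and 28. Ikzf1, a lymphoid transcription factor, had 1.01 FPKM in control and then 0.739, 1.88, 2.73, 0.378 and 0.722.

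The paralogs and partners of Rac2 and Coro1a were mixed. Rac1, the widely expressed paralog of Rac2, lay between 54.0 and 61.8 FPKM, and Rac3 was at 6.08 FPKM in control and then 13.1, 4.10, 4.34, 17.3 and 4.36 on the 5 days. Of 18 regulators of actin and of small GTPases, 2 of 12, 6 of 17, 7 of 17, 6 of 15 and 0 of 14 compared were called higher on the 5 days. Of all genes compared, 5.11%, 8.54%, 8.53%, 8.97% and 3.68% were called higher. Nckap1l, the haematopoietic member of the WAVE complex through which Rac acts, reached 10.3 FPKM at day 7 (log2 ratio 2.70). Coro1b and Coro1c, close paralogs of Coro1a, had log2 ratios between 0.11 and 0.71 on all days, and Coro2a, a more distant paralog, was the 1 gene of the list called lower on any day, at day 14 (-2.12).

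The summed FPKM of microglia markers and that of monocyte and macrophage markers were above control on days 3, 7 and 14, as Ptprc and Rac2 were. At day 1, where Rac2 was 4.42-fold control, the microglia sum was below control. Neutrophil markers, described further below, summed to 36.2 FPKM at day 1 and 39.1 at day 14 and were lower at day 7, where Rac2 was highest. What part these cells had in the values of Ptprc and Rac2 was not tested. Of 13 microglia markers, 12 had a value, and their summed FPKM was 154 in control and then 138, 373, 484, 318 and 146 on the 5 days. Between 5 and 6 of 10 or 11 compared were called higher on days 3, 7 and 14, while 0 were higher and 2 and 1 lower at days 1 and 28. Cx3cr1, not listed in control, was bound to be called at day 14. The defining markers P2ry12 and Sall1 had log2 ratios of -0.44 and -0.49 at day 14. P2ry12 was also close to control at days 3 and 7 (0.26 and -0.03). Tmem119 was listed at days 7 and 28 only, and P2ry13 was in no table. Of 14 monocyte and macrophage markers, 12 had a value, with a summed FPKM of 16.0 in control and then 32.9, 211, 440, 249 and 38.8. Lyz2, a lysozyme of macrophages and microglia, held 357 of the 440 FPKM at day 7. Of the monocyte and macrophage markers compared, 3 of 7, 8 of 8, 6 of 7, 5 of 7 and 3 of 7 were called higher on the 5 days. Among them Arg1, Ly6c2 and Plac8 were not listed in control and were bound to be called where compared. Of all genes compared, 5.11%, 8.54%, 8.53%, 8.97% and 3.68% were called higher. Ccr2, a receptor of monocytes that enter from blood, had 0.199, 0.140 and 0.0564 FPKM on the first 3 days and was not listed otherwise.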

How the data were processed

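RNA of the ipsilateral cortex, pooled from 3 mice per group, gave 6 poly(A)-selected, strand-specific libraries sequenced as paired-end reads of 150 bases. The authors deposited FPKM values, each for a start, an end or a splicing event of a locus, and left out events at 0. Trimmomatic 0.30, HISAT2 2.0.1, HTSeq 0.6.1 and the build mm10 are named in the submitters' processing notes, and the tool that assembled the loci is not given in the sources used here. FPKM are scaled to depth and length, so no interval or detection floor is given.

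The gene value (the largest of summed starts, summed ends and any single event) cannot exceed the FPKM of the locus. It had been chosen in earlier work that also looked at the study's own lists of changed genes. The members and gene lists were chosen with earlier results of these data known. The 148 event values of the members all overlapped the span of their gene in GENCODE M21 (GRCm38). Genes not listed were taken as 0 in counts and in medians of lists, with no ratio given for a single such gene. With 1 library per group there was no test. Named were all members, up to 6 genes per list with the highest FPKM in any library, and the 5 genes most like Ptprc and most like the mean of the members by Pearson's r. Others, including markers, genes in no table and Rac3, Coro1b, Coro2a, Nckap1l, Itgb2, Ikzf1 and Ccr2, were added after their values were seen. Some genes of the lists are not reported here by name. The methods were tested on simulated data. Alternatives covered the construction, scaling, length correction (20 bins), pseudocount, filter and threshold. The work used matplotlib 3.10.9, scipy 1.17.1, pandas 2.3.3 and numpy 2.4.6 under Python 3.11.15.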

Additional observations from a re-analysis of the deposited data

How the results depend on the processing

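No paired analysis was possible because each group holds 1 library. No library could be left out for the same reason. Of 110 counts of members called under 11 alternatives, 100 were within 1.5 times the count reported, and of 50 medians 47 were within 1.5-fold. With starts alone, the median log2 ratio on the first 3 days was 0.80, 3.69 and 3.83, and 1 member was called higher at day 14. That construction leaves Ptprc and Cd4 without a value in control. With a pseudocount of 1, 0 members were called higher at day 1 and 1 at days 3 and 7. With a threshold of 2, 0 were called at day 1 and 1 each at days 3, 7 and 14. Without the filter on low values, which lets in Cd3d, Cd3e and Nkg7 at 0 in control, 5 were called at day 14 and 1 at day 28. The scaling, the length correction and the restriction to events inside the gene span moved no count of members and no median past those bounds. Among the other lists, 2 medians changed sign without the filter, that of the T cell genes at day 7 (from -1.05 to 0.05) and that of the neutrophil markers at day 28 (from 2.15 to -0.03). Of 1210 counts and 484 medians of the other lists, 153 and 64 moved past the same bounds, most often without the filter on low values (47 of 159). Depth per library is unknown, so values under 1 FPKM, as for Cd3d, Cd3e and Nkg7, carry an unknown error.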

Other observations

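Of 12 neutrophil markers, 10 had a value, and their summed FPKM was 1.53 in control, then 36.2 and 22.9 on the first 2 days and 39.1 and 3.31 on the last 2, and that of day 7 lay between the values of days 28 and 3. Lcn2, a secreted lipocalin that astrocytes also make, held 26.6 of the 39.1 FPKM at day 14. S100a9, a calcium-binding protein of neutrophils, was listed at day 1 (10.1 FPKM) and day 14 (5.32) and in no other library. Retnlg was at 1.34 FPKM at day 1 and 0.133 at day 14, and Ngp and Cxcr2 were listed at day 1 alone. Of the neutrophil markers compared, 4 of 5, 3 of 3, 2 of 2, 4 of 4 and 1 of 2 were called higher on the 5 days. Among them S100a9, Retnlg and Lcn2 were not listed in control and were bound to be called where compared. Of all genes compared, 5.11%, 8.54%, 8.53%, 8.97% and 3.68% were called higher. The highest library was day 1 for 5 of the 10 and day 7 for 4, among them Csf3r (1.30 FPKM in control and 5.74 at day 7).

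Of 14 dendritic cell markers, 11 had a value, and 5 of these were highest at day 14. Of all 15441 genes with a value, 3913 were highest at day 14. The summed FPKM of the list was 84.7 in control and between 71.6 and 113 on the 5 days. Called higher were 0 of 5, 3 of 6, 4 of 8, 5 of 8 and 1 of 6 compared, against 5.11%, 8.54%, 8.53%, 8.97% and 3.68% of all genes. Itgax, not listed in control, was bound to be called at days 7 and 14. Flt3, a growth factor receptor of dendritic cell precursors, had 0.811 FPKM in control and then 0.609, 0.431, 0.727, 2.05 and 1.22 on the 5 days. Zbtb46 was highest in control (2.04 FPKM, against 1.67 at day 14). Another 3 genes were highest at day 7, among them Itgax (1.90 FPKM) and Cd209a, listed at that day alone (0.380). Ccr7, the receptor that guides dendritic cells and T cells to lymph nodes, was listed at day 14 alone (0.404 FPKM). Xcr1 and Clec9a, which mark cross-presenting dendritic cells, were in no table. Fscn1, the most abundant gene of the list, lay between 57.0 and 79.7 FPKM and is also made by neurons.

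Over all 12709 genes with a highest FPKM of at least 1, the highest library was day 14 for 26.8%, against 12.9% to 16.5% for each other library. Of the 4 members above that level, 3 (Cd4, Ptprc and Coro1a) were highest at day 14, and with length correction Coro1a was not among them. Over all 15441 genes with a value, 3913 were highest at day 14, as were 6 of the 7 listed members.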
